A study of Mus musculus with 4 samples.

Results

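Interferon-stimulated genes were followed in kidney RNA of Th3 mice, a mouse model of beta-thalassemia, and of control mice. The genes were chosen by name: 47 names of genes known to be induced by interferons stand for 46 genes, since G1p2 is an older symbol of Isg15. A gene counted as present when a probe of the array carried its current symbol or a synonym, and MHC, immunoproteasome and chemokine genes were left aside. Of the 46 genes, 44 had a probe and 40 had a probe well above background, out of 27573 genes on the array and 17639 that could be tested. The 2 genes with no probe were Xaf1 and Dtx3l. Mx1, Oas1g, Oas3 and Ifi205 had probes that were not well above background throughout either group, and are not described further.

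The Th3 allele lacks both adult beta-globin genes, beta-major and beta-minor, and the 4 samples of Th3 mice are called Th3 below. The 4 control samples carry no further description in the labels. Neither zygosity, sex, age nor strain background is stated for either group, and both groups are kidney total RNA. Each of 4 two-colour arrays, all on 1 slide, held 1 Th3 and 1 control sample. Th3 was labelled with Cy5 on arrays 1 and 2 and with Cy3 on arrays 3 and 4. The labels do not say whether each sample is a separate animal, so p-values measure the spread between these samples, which may be technical.

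Interferons are secreted proteins that cells release on sensing foreign or misplaced nucleic acid, or that T and NK cells release on activation. Type I interferons (alpha and beta) act through a complex with STAT2 and IRF9 that binds the interferon-stimulated response element (ISRE) and turns on antiviral genes such as the IFIT, OAS and MX families. Interferon-gamma acts through gamma-activated sites (GAS) and through IRF1, and in mice it strongly induces GTPases that coat the vacuoles of intracellular pathogens. Many genes respond to both, so the grouping into 31 type I genes, 9 interferon-gamma GTPases and 6 others follows common usage. In kidney these genes are expressed by resident and infiltrating leukocytes as well as by tubular and endothelial cells.

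The labels were first checked at the deleted locus. The adult beta-globin probe Hbb-bt had log2 ratios of Th3 over control of -3.13, -3.16, -3.93 and -4.02 on arrays 1 to 4, or 8.48% of control, in the direction the labels give. All 12 kidney markers were measured. In the fit with a dye term described below, 4 of them (Kap, Pvalb, Slc34a1 and Cubn) were called lower, against 10.6% of all tested genes. Without that term 3 were lower, against 5.03%, and with the pair of arrays as a random block 2 were, against 3.13%. Kap, a proximal tubule gene that androgens induce, was at -3.34 ± 0.32 (log2, SD, n = 4 arrays). In each channel 62.4% to 72.7% of probes were well above background and no spot was saturated. The arrays fell into 2 pairs. Log2 ratios over all tested genes correlated at 0.67 between arrays 1 and 2 and at 0.71 between arrays 3 and 4, and at 0.43 to 0.53 between arrays of different pairs. The pairs differ in dye orientation and in the samples they hold, and these cannot be told apart. Results are therefore given per array, and with and without a term for the pair.

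With a term for dye orientation in the fit (limma, Benjamini-Hochberg adjusted p under 0.05 over all tested genes), 19 of the 40 measured genes (47.5%) were called lower in Th3 kidney, 0 were called higher and 21 did not pass. At an unadjusted p under 0.05 in the same limma fit, 24 genes were lower and 1, Rsad2, was higher. Over all tested genes 10.6% were called lower and 10.9% higher. The median log2 ratio of the 40 genes was -0.18, against 0.00 for all tested genes, and 34 of the 40 were below 0. Most changes were small: among the 40, Ubd alone differed by at least 2-fold in its mean. For 6 of the 19 called genes the SD over all arrays was larger than the size of the mean log2 ratio. The number called depends on how the pairs are treated. Without the dye term, 5 genes were called lower (Zbp1, Irf7, Ifi203, Gvin1 and Irf8), against 5.03% of all tested genes, and with the pair as a random block 2 were (Zbp1 and Irf7), against 3.13%. Leaving out array 2 left 10 genes lower, against 7.95% of all tested genes, and leaving out array 3 also left 10, against 7.9%. With median centring in place of loess, 12 genes were lower and 1, Rsad2, was higher, against 6.5% and 11% of all tested genes. Of the 40 genes, 5 had an adjusted p under 0.05 with a fold below control in the authors' deposited table, against 4.11% of all probes there.

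**Figure D1:**
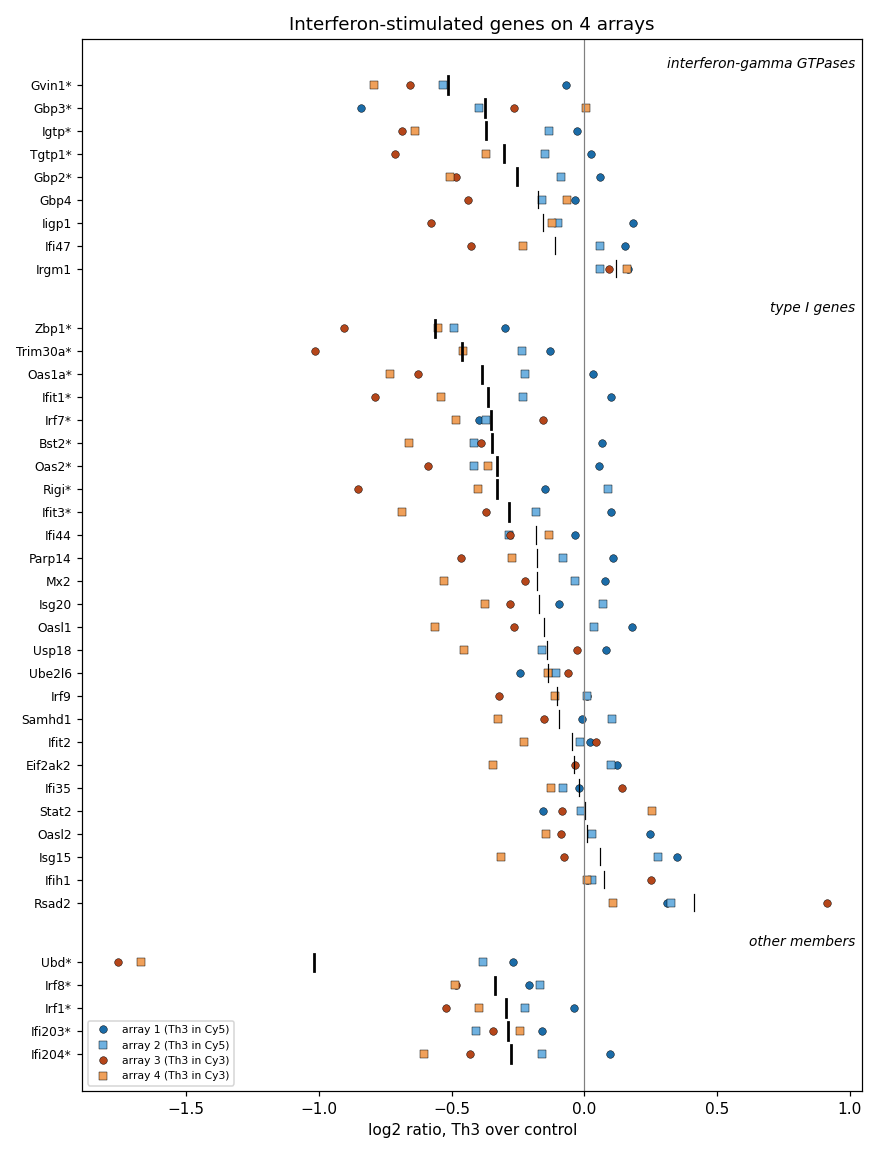
Log2 ratio of Th3 over control (horizontal axis) of the 40 measured interferon-stimulated genes on each of 4 arrays, with blue points for Th3 in Cy5 and orange points for Th3 in Cy3; the vertical bar is the mean, and an asterisk and a thick bar mark the 19 genes called lower. Ubd lies farthest left at -1.76 and -1.67 on arrays 3 and 4, and Rsad2 and Irgm1 are right of 0 on all 4 arrays.

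The size of the difference varied between the pairs of arrays. The median log2 ratio of the 40 genes was 0.02 and -0.12 on arrays 1 and 2, and -0.36 and -0.37 on arrays 3 and 4. The ratio was lower on arrays 3 and 4 than on arrays 1 and 2 for 32 of the 40 genes (80.0%), against 55.1% of all tested genes, and for 17 of the 19 called genes, the exceptions being Irf7 and Gbp3. That difference itself passed the test for Ubd alone among the 40, while 0.754% of all tested genes passed it in this direction. Fitted by themselves, arrays 3 and 4 gave 22 genes lower and 1 higher, against 9.55% and 8.56% of all tested genes. Arrays 1 and 2 by themselves gave 2 lower, against 2.92%. A negative ratio on all 4 arrays was found for 12 of the 40 genes (30.0%), against 17.4% of all tested genes. A positive one was found for 3 of the 40 (7.5%), against 19.7%.

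Markers of macrophages and lymphocytes were lower as well, while neutrophil markers were not. With the dye term, 13 of 17 measured macrophage and dendritic cell markers were called lower, with a median log2 ratio of -0.48, as were 7 of 10 T and NK cell markers and 4 of 7 B and plasma cell markers, against 10.6% of all tested genes. Without the dye term these counts were 7, 0 and 2, against 5.03% of all tested genes. With the pair as a block they were 3, 0 and 2, against 3.13%. Of 5 measured neutrophil markers 2 were called higher (S100a9 at 1.08 ± 0.60 and Camp at 0.25 ± 0.24), against 10.9% of all tested genes. In the limma fit 0 were lower (1, Ltf, at an unadjusted p under 0.05), and the median was 0.19. Camp was dim on arrays 3 and 4, at 105 and 91 in Th3 and 71 and 74 in control samples. It was well above background in only 2 control samples. Without the dye term S100a9 alone was higher, against 6.25% of all tested genes. The summed intensity of the macrophage and dendritic cell markers was 19026 to 31988 in Th3 samples and 24121 to 53380 in control samples. Their median ratio was -0.07 over arrays 1 and 2 and -0.79 over arrays 3 and 4, beside -0.05 and -0.34 for the 40 interferon-stimulated genes. The summed intensity of T and NK cell markers was 1735 to 2112 in Th3 and 1995 to 2538 in control samples, and that of B and plasma cell markers 15725 to 21833 in Th3 and 16655 to 24638 in control samples. Such sums are set mostly by the brightest genes. Blnk made up most of the B and plasma cell sum, at 13662 to 19491 in Th3 and 14141 to 15537 in control samples, and was not called (0.13 ± 0.23). Lyz2 was the largest part of the macrophage sum, at 8221 to 17520 in Th3 and 9463 to 29853 in control samples. No measured defining marker of these lists was at 0, because an array spot always has some brightness. Clec9a, a dendritic cell marker, was well above background in all 4 control samples and in 0 Th3 samples. It was dim in both groups, at 74, 85, 80 and 85 in Th3 samples and 103, 92, 127 and 118 in control samples. Its probe was kept through the control samples alone, where it was brighter, and it is among the 13 markers called lower. Itgam, Flt3, Gzma, Klrb1c, Ncr1, Prf1, Cd2, Cd79a and Pax5 were on the array but had no probe that was kept, so they have no value. Fewer cells of a type and less RNA per cell cannot be told apart in bulk tissue RNA, and the part of these cells in the results below was not tested. Plasmacytoid dendritic cell markers, whose cells are known as strong makers of type I interferon, were lower in 1 of 7, with a median of -0.07.

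**Figure D2:**
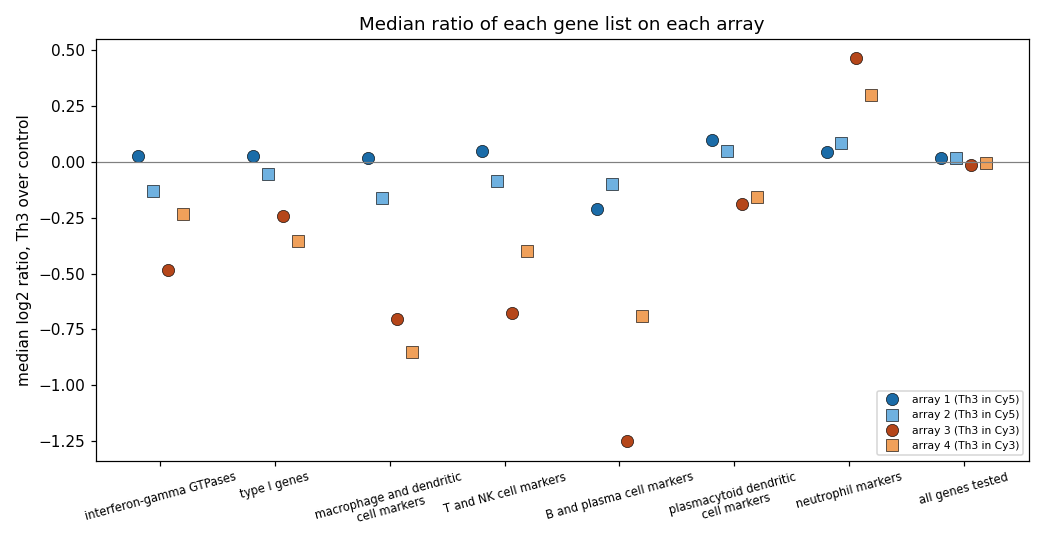
Median log2 ratio of Th3 over control (vertical axis) of the 9 interferon-gamma GTPases, the 26 measured type I genes, 5 lists of leukocyte markers and all 17639 tested genes, with 1 point per array. On arrays 3 and 4 the GTPases, the type I genes and the macrophage, T cell and B cell lists lie at or below -0.23, and the neutrophil list lies at 0.46 and 0.30.

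The interferon-gamma GTPases and the type I genes were set side by side. All 9 GTPases were measured: 5 were called lower and 4 did not pass, with a median log2 ratio of -0.25. Of the 26 measured type I genes 9 were called lower and 17 did not pass, with a median of -0.16. Over all tested genes 10.6% were called lower. Without the dye term 1 GTPase and 2 type I genes were lower (5.03% of all tested genes). With the pair as a block 0 GTPases (adjusted p of at least 0.0587 in limma) and 2 type I genes were lower (3.13% of all tested genes). Which list had the larger share thus depends on the fit. The GTPase median minus the type I median was 0.00, -0.07, -0.24 and 0.12 on arrays 1 to 4, so the sign differed between arrays and neither list was the lower one throughout. Both lists shifted with the pair of arrays: the GTPase median was -0.06 over arrays 1 and 2 and -0.35 over arrays 3 and 4, and the type I median was -0.03 and -0.28. The remaining 5 measured genes, Ubd, Irf8, Irf1, Ifi203 and Ifi204, were all called lower with the dye term. Without it 2 of them were (Ifi203 and Irf8), and with the pair as a block 0 were. Of all tested genes these fits called 10.6%, 5.03% and 3.13% lower.

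**Figure D3:**
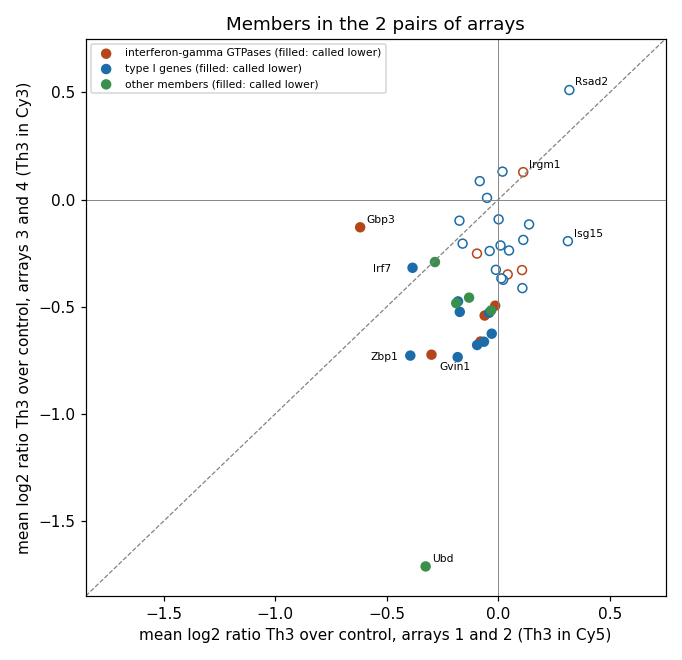
Mean log2 ratio of Th3 over control of the 40 measured genes on arrays 1 and 2 (horizontal axis) against arrays 3 and 4 (vertical axis), coloured by class, with filled points for genes called lower; on the dashed line both pairs give the same ratio. Of the 40 genes 32 lie below the line, and Gbp3 is the called gene farthest above it.

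Promoters show what the genes share beyond their names. RefSeq promoters (assembly GRCm38.p6) were found for 36 of the 46 genes, and the 250 bases before each start were searched on both strands for the ISRE core (GAAA, then NN, then GAAA, where N is any base) and for the GAS motif TTCNNNGAA. The ISRE core was present in 17 of 36 genes (47.2%), against 3.46% of the 27025 genes in the promoter table. It was present in 5 of 6 GTPases and in 10 of 25 type I genes. The GAS motif was present in 10 of 36 genes (27.8%), against 8.13%. Among genes called lower, 10 of 15 held an ISRE core, and among genes that did not pass, 4 of 16 did. The other 10 genes are Gvin1, Gbp4, Iigp1, Ifi204, Usp18, Mx1, Mx2, Zbp1, Oas2 and Parp14. A match is a description of the letters and not a bound site. The following promoter stretches of 130 bases up to the start are written in the direction of the gene, with ISRE cores and GAS motifs in capitals. They were chosen to show genes that were lower in Th3 kidney beside genes that were not, and all of them hold a motif. Neither motif was found for the called genes Irf7, Rigi and Ubd. The same held for Ifi47, Ube2l6, Irf9, Oasl1, Oasl2, Ifih1, Ifi44 and Ifi35, which did not pass. Igtp, Gbp2, Oas1a, Ifit1 and Irf1 were called lower, and Irgm1, Isg15 and Rsad2 were not:
Igtp (chr11:58199426-58199555, plus strand): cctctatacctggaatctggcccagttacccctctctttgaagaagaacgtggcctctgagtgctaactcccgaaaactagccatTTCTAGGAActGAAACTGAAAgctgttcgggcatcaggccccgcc
Gbp2 (chr3:142620533-142620662, plus strand): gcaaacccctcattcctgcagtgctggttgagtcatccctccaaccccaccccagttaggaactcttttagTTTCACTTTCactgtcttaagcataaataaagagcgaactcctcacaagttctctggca
Oas1a (chr5:120907526-120907655, minus strand): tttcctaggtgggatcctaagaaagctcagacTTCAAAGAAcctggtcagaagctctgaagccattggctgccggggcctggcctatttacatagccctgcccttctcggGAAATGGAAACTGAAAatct
Ifit1 (chr19:34640759-34640888, plus strand): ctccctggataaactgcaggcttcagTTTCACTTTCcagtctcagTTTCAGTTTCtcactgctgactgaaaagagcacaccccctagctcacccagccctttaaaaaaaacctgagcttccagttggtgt
Irf1 (chr11:53769884-53770013, plus strand): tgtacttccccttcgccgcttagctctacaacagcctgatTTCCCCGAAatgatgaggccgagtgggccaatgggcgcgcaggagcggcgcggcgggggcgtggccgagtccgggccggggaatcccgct
Irgm1 (chr11:48871421-48871550, minus strand): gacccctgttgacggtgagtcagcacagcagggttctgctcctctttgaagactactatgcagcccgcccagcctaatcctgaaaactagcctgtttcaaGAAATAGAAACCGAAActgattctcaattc
Isg15 (chr4:156200819-156200948, minus strand): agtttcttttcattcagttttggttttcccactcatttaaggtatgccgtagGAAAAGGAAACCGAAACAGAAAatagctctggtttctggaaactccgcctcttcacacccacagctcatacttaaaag
Rsad2 (chr12:26456453-26456582, minus strand): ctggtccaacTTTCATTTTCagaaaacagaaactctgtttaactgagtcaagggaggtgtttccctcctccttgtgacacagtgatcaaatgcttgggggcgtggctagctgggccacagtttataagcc
Igtp has a GAS motif just before an ISRE core, whereas Irf1 has a GAS motif alone and Ifit1 has 2 ISRE cores that do not overlap. Irgm1, Oas1a and Isg15 have overlapping ISRE cores, 2 in Irgm1 and Oas1a and 3 in Isg15. Genes whose RNA was lower and genes whose RNA was not are thus both found among the promoters with an ISRE core. In Bst2, a called gene, the GAS motif overlaps the first ISRE core.

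Among the GTPases, Gvin1, a very large interferon-inducible GTPase, had the largest difference. Its probe lies at chr7:105951087-105951146 on build mm8, the build of the array annotation. Its normalized intensity was 1119, 894, 960 and 798 in Th3 samples on arrays 1 to 4, and 1173, 1291, 1512 and 1383 in control samples. Every Th3 value lay below every control value, which held for 5 of the 40 genes (12.5%), against 9.59% of all tested genes. The log2 ratios were -0.07, -0.53, -0.65 and -0.79, with a mean of -0.51 ± 0.31 (SD, n = 4 arrays; adjusted p = 0.00975), or 70.1% of control. Without the dye term it kept its call (adjusted p = 0.0397), and with the pair as a block it did not (adjusted p = 0.0587). The other 2 probes of Gvin1 had means of -0.27 and -0.21, and were above 0 on array 1, at 0.12 and 0.08.

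Gbp3 and Gbp2 are guanylate-binding proteins, which assemble on the membranes of vacuoles that hold bacteria or parasites. Gbp3 (chr3:142510494-142510553, mm8) had intensities of 1562, 1702, 1784 and 1779 in Th3 samples and 2799, 2243, 2144 and 1771 in control samples. Its log2 ratios of -0.84, -0.40, -0.27 and 0.01 were larger in size on arrays 1 and 2, whereas 7 of the 9 GTPases had lower ratios on arrays 3 and 4; the mean was -0.37 ± 0.35 (adjusted p = 0.029). Gbp2 had ratios of 0.06, -0.09, -0.48 and -0.51, with a mean of -0.25 ± 0.28 (adjusted p = 0.0221). Gbp2 was thus lower on 3 of 4 arrays and by over 0.4 only on arrays 3 and 4. Gbp4 did not pass, at -0.17 ± 0.18 (adjusted p = 0.148).

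Igtp is one of the immunity-related GTPases that guard host membranes while effector GTPases load onto vacuoles. Its intensity (probe at chr11:58023620-58023679, mm8) was 4185, 2972, 3012 and 2665 in Th3 samples, against 4270, 3255, 4846 and 4151 in control samples. The groups overlap, and the ratios of -0.03, -0.13, -0.69 and -0.64 differ mainly between the pairs; the mean was -0.37 ± 0.34 (adjusted p = 0.0067). Tgtp1, an effector GTPase with a near-identical neighbouring copy that the probes may also detect, had ratios of 0.03, -0.15, -0.71 and -0.37 (mean -0.30 ± 0.32, adjusted p = 0.0323). The effector GTPases Iigp1 and Ifi47 had means of -0.15 and -0.11 and did not pass (adjusted p = 0.273 and 0.226). Irgm1, another guard GTPase, went the other way: its intensity was 4579, 3929, 3930 and 3796 in Th3 samples, against 4083, 3774, 3683 and 3392 in control samples. Its ratio was above 0 on all 4 arrays, from 0.06 to 0.17, but small, at 0.12 ± 0.05, and it did not pass (adjusted p = 0.163). Irgm1 and Igtp, which belong to the same family, therefore had ratios of opposite sign on every array by the brightest probe of each. Another Irgm1 probe well above background had ratios of 0.26, 0.15, 0.08 and -0.08, so on array 4 its sign was that of Igtp.

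Sensors of nucleic acid held the largest difference among type I genes. Zbp1, which binds nucleic acid in the Z form and can start cell death, had an intensity of 576, 501, 505 and 478 in Th3 samples and 708, 703, 946 and 700 in control samples. No Th3 value reached a control value. The probe lies at chr2:172849549-172849608 (mm8), and its ratios were -0.30, -0.49, -0.90 and -0.55. The mean was -0.56 ± 0.25 (adjusted p = 0.00577), or 67.8% of control, and Zbp1 passed without the dye term (adjusted p = 0.0204) and with the pair as a block (adjusted p = 0.0328).

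The oligoadenylate synthetases Oas1a and Oas2 make the messenger that activates RNase L, which degrades RNA in infected cells. Oas1a had intensities of 414, 391, 342 and 292 in Th3 samples and 405, 456, 528 and 485 in control samples. The groups overlap through array 1, where the ratio was 0.03, while it was -0.22, -0.63 and -0.73 on the others; the mean was -0.39 ± 0.36 (adjusted p = 0.00972). Oas2 was dim, at 185, 172, 170 and 160 in Th3 samples and 178, 230, 255 and 206 in control samples. Its ratios were 0.05, -0.42, -0.59 and -0.36, with a mean of -0.33 ± 0.27 (adjusted p = 0.0432). The synthetase-like genes Oasl1 and Oasl2 did not pass, at -0.15 ± 0.33 and 0.01 ± 0.17 (adjusted p = 0.163 and 0.918). Across the 4 measured genes of this family the calls thus fell on the synthetases and not on the like proteins, and the difference between them was not tested.

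Rigi and Ifih1 encode receptors of viral RNA in the cytosol, and Eif2ak2 a kinase that stops translation on binding double-stranded RNA. The brightest Rigi probe had ratios of -0.15, 0.09, -0.85 and -0.40 (mean -0.33 ± 0.40, adjusted p = 0.0413), but its other 2 probes well above background had means of 0.09 and -0.01. The probes of Rigi disagree, so its call rests on a single probe. Ifih1 did not pass, at 0.07 ± 0.12 (adjusted p = 0.423), nor did Eif2ak2, at -0.04 ± 0.21 (adjusted p = 0.725).

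The IFIT proteins bind foreign RNA and block its translation. Ifit1 had intensities of 335, 290, 286 and 275 in Th3 samples, against 312, 340, 494 and 399 in control samples (probe at chr19:34715303-34715362, mm8). Its ratios were 0.10, -0.23, -0.79 and -0.54, with a mean of -0.36 ± 0.39 (adjusted p = 0.0209). Ifit3, which has a near-identical copy, had intensities of 3367, 2868, 3117 and 2353 in Th3 samples and 3140, 3254, 4028 and 3789 in control samples. Its ratios were 0.10, -0.18, -0.37 and -0.69 (mean -0.28 ± 0.33, adjusted p = 0.0454). Both genes were above 0 on array 1 and below 0 on the other 3 arrays. Ifit2, which lies in the same gene family, did not pass, at -0.05 ± 0.12 (adjusted p = 0.653).

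Isg15 is a ubiquitin-like protein, Ube2l6 the enzyme that conjugates it and Usp18 the enzyme that removes it. None of these 3 genes passed. Isg15 had ratios of 0.35, 0.28, -0.08 and -0.31 (mean 0.06 ± 0.31, adjusted p = 0.537), so its sign differed between the pairs of arrays. The array annotation places the Isg15 probe on chromosome 17 and the RefSeq gene lies on chromosome 4, so what the probe detects is uncertain. Ube2l6 was below 0 on all 4 arrays, at -0.14 ± 0.08 (adjusted p = 0.128), and Usp18 was at -0.14 ± 0.23 (adjusted p = 0.287).

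Among antiviral effectors, Bst2 tethers budding virus to the cell surface. Its intensity was 4862, 4081, 4086 and 3164 in Th3 samples and 4637, 5437, 5353 and 4997 in control samples. The groups overlap through array 1, and the ratios were 0.07, -0.41, -0.39 and -0.66 (mean -0.35 ± 0.30, adjusted p = 0.0409). Rsad2, the radical enzyme viperin that blocks viral replication, stood out in the other direction. Its intensity (probe at chr12:27029262-27029321, mm8) was 2616, 2570, 2714 and 1728 in Th3 samples, against 2108, 2050, 1442 and 1601 in control samples. Its ratios of 0.31, 0.33, 0.91 and 0.11 on the brightest probe were above 0 on all 4 arrays, and its 3 probes had means from 0.19 to 0.41. The probe with the lowest mean was at -0.26 on array 4. The mean of the brightest probe was 0.41 ± 0.35, or 133% of control, and missed the threshold (adjusted p = 0.0563). Rsad2 passed in 7 of 16 alternative fits, with adjusted p from 0.00774 to 0.138. Mx2, Isg20 and Samhd1 did not pass, with means from -0.18 to -0.09.

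**Figure D4:**
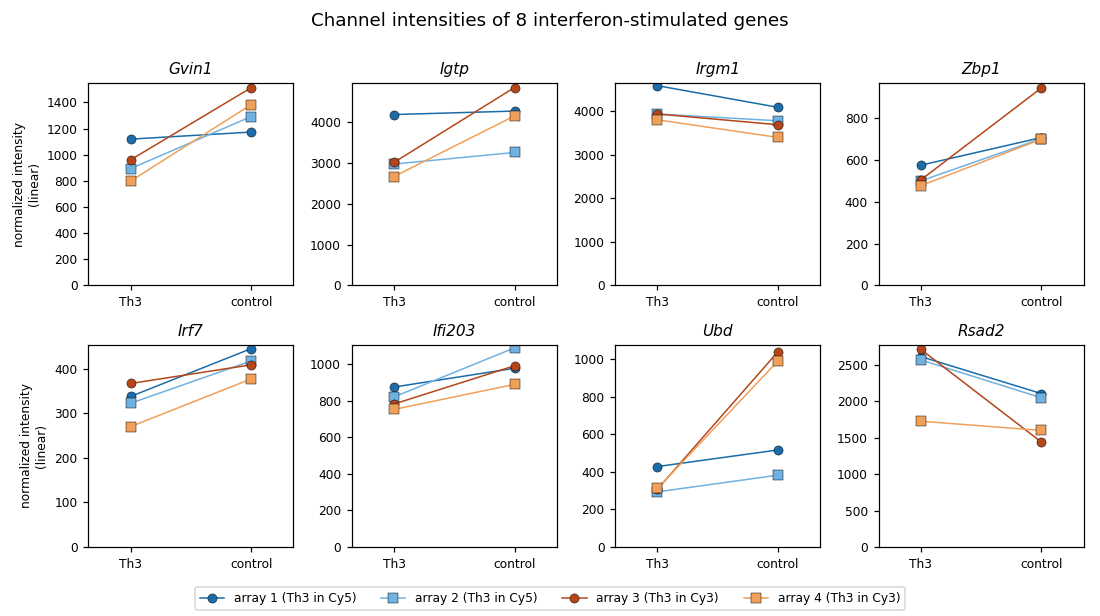
Normalized intensity on a linear scale (vertical axes, from 0) of 8 interferon-stimulated genes in Th3 samples (left) and control samples (right), with lines joining the 2 samples of an array. Gvin1, Zbp1, Irf7 and Ifi203 are lower in every Th3 sample than in any control sample, Ubd and Igtp overlap, and Irgm1 and Rsad2 are higher in Th3 on each array.

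Of the transcription factors, Irf7, the factor that amplifies type I interferon production, was lower on every array. Its intensity (chr7:141116085-141116435, mm8) was 338, 322, 367 and 270 in Th3 samples and 445, 417, 408 and 377 in control samples, with no overlap. Its ratios of -0.40, -0.37, -0.16 and -0.48 did not split by pair. The mean was -0.35 ± 0.14 (adjusted p = 0.016), and it passed without the dye term (adjusted p = 0.0283) and with the pair as a block (adjusted p = 0.0496). Irf8, a factor that macrophages, dendritic cells and B cells need for their development, had intensities of 1866, 1624, 1620 and 1487 in Th3 samples and 2159, 1823, 2262 and 2081 in control samples. Only the Th3 value of array 1 lay above the lowest control value. Its ratios were -0.21, -0.17, -0.48 and -0.49 (mean -0.34 ± 0.17, adjusted p = 0.00791, and 0.0405 without the dye term).

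Irf1, the factor that carries much of the response to interferon-gamma, had intensities of 3808, 2655, 2869 and 2879 in Th3 samples and 3914, 3097, 4116 and 3785 in control samples. Its ratios of -0.04, -0.22, -0.52 and -0.39 were below 0 on all 4 arrays (mean -0.29 ± 0.21, adjusted p = 0.018). Without a dye term its adjusted p was 0.078. Irf9 and Stat2, which belong to the type I complex, did not pass, at -0.10 ± 0.16 and 0.00 ± 0.18 (adjusted p = 0.262 and 0.992).

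The HIN-200 proteins are nuclear DNA-binding proteins of a mouse gene cluster with many similar copies, so their probes may detect more than 1 gene. Ifi203 had intensities of 875, 822, 783 and 753 in Th3 samples and 978, 1090, 992 and 890 in control samples, with no overlap. On this brightest probe the ratios of -0.16, -0.41, -0.34 and -0.24 did not split by pair (mean -0.29 ± 0.11, adjusted p = 0.0231, and 0.0371 without the dye term). The other probes of Ifi203 did split, with lower ratios on arrays 3 and 4. One had -0.29, -0.37, -0.71 and -0.67 (mean -0.51), and another 0.10, -0.02, -0.34 and -0.15 (mean -0.10). Ifi204 had intensities of 658, 643, 619 and 532 in Th3 samples and 616, 718, 834 and 808 in control samples. Its ratios were 0.10, -0.16, -0.43 and -0.60 (mean -0.27 ± 0.31, adjusted p = 0.0313), above 0 on array 1 alone.

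Among other induced proteins, Ubd, a ubiquitin-like modifier that interferon-gamma and tumour necrosis factor induce together, had the largest difference of the 40 genes. Its intensity (probe at chr17:36803796-36803855, mm8) was 428, 293, 307 and 311 in Th3 samples, against 516, 382, 1038 and 989 in control samples. The Th3 values were similar on all arrays, and the control values of arrays 3 and 4 were the high ones. The ratios were -0.27, -0.38, -1.76 and -1.67, with a mean of -1.02 ± 0.80 (adjusted p = 0.000446), or 49.3% of control. The difference between the pairs passed the test too (adjusted p = 0.0356), and the adjusted p without a dye term was 0.0593. Ubd was thus lower on each array, by amounts that differed between the pairs.

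Trim30a, a ubiquitin ligase of a cluster with similar copies that restrains inflammatory signalling, had intensities of 284, 270, 258 and 266 in Th3 samples and 311, 317, 522 and 365 in control samples. No values overlap, and the ratios were -0.13, -0.23, -1.02 and -0.46 (mean -0.46 ± 0.40, adjusted p = 0.0189). The other probe of Trim30a had ratios of 0.31, -0.04, -0.39 and -0.48 with a mean of -0.15, and with Agilent's processed signals the gene had a mean of -0.19 (adjusted p = 0.227). In the fit with no dye term its adjusted p was 0.0862. Ifi44, Parp14 and Ifi35 did not pass, with means of -0.18, -0.18 and -0.02. The other probe of Ifi44 had a mean of 0.19, opposite in sign. Of the 18 genes with several probes well above background, 3 (Rigi, Ifi44 and Ifih1) had probe means of opposite sign.

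Upstream, 52 genes that make, sense or transmit interferon were listed, and 43 of them were measured. With the dye term, 9 were called lower and 1 higher, against 10.6% and 10.9% of all tested genes, and their median log2 ratio was -0.08. Without the dye term 2 were lower and 1 higher, against 5.03% and 6.25% of all tested genes. With the pair as a block 1 was lower and 1 higher, against 3.13% and 3.63%. Without array 2 or array 3 the number lower was 4 or 5, against 7.95% or 7.9%. Of 21 genes that lead to interferon production, 6 were called lower: Irf5, Unc93b1, Trex1, Dhx58, Irf3 and Traf3. Irf5, a factor of Toll-like receptor signalling in macrophages, had intensities of 226, 264, 261 and 279 in Th3 samples and 455, 417, 413 and 429 in control samples, with no overlap. Its ratios were -1.01, -0.66, -0.66 and -0.62, the largest fall in the list and one present in both pairs (mean -0.74 ± 0.18, adjusted p = 0.0021). Unc93b1, which carries Toll-like receptors to endosomes, had intensities of 1251, 1058, 1190 and 1188 in Th3 samples and 1349, 1243, 2063 and 1794 in control samples, with a mean of -0.43 ± 0.32 (adjusted p = 0.00636). Of 17 receptors and signalling genes 2 (11.8%) were lower, near the 10.6% of all tested genes: Socs1, a feedback inhibitor that interferons induce, at -0.35 ± 0.25 (adjusted p = 0.0165), and the phosphatase Ptpn6 at -0.33. Socs1 had intensities of 469, 360, 346 and 375 in Th3 samples and 545, 391, 563 and 486 in control samples, and its adjusted p was 0.068 without the dye term.

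Ifngr1, the ligand-binding chain of the interferon-gamma receptor, was the single gene of the 43 called higher. Its intensity was 7374, 6715, 7421 and 6853 in Th3 samples and 5302, 5413, 6023 and 5555 in control samples, with no overlap. Its ratios of 0.48, 0.31, 0.30 and 0.30 were alike on all arrays (mean 0.35 ± 0.09, adjusted p = 0.00915). Of 14 ligands and inducing cytokines 13 had a probe and 5 were measured. Ifng, the gene of interferon-gamma, was dim, at 119, 100.2, 106 and 101 in Th3 samples and 125, 104, 150 and 127 in control samples, and was called lower at -0.23 ± 0.21 (adjusted p = 0.0307). Its ratios were -0.07, -0.05, -0.49 and -0.32, and the adjusted p was 0.140 without the dye term and 0.178 with the block. Ifnb1 was not well above background and has no value here.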

How the data were processed

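Each array compared 1 Th3 with 1 control kidney RNA; group, dye and array number come from the labels. Per the labels' protocols, RNA came from a Qiagen RNeasy extraction, and cRNA was amplified from an oligo-dT primer and labelled. Spot and background intensities, processed intensities and the log10 ratio of Cy5 over Cy3, which served to check directions, are deposited scanner values of Agilent Feature Extraction 9.5.3.1 for array design 014868, with positions on mm8, per the file headers. The authors deposited log2 ratios of Th3 over control per array, a signed fold used as a score and an adjusted p-value; the steps behind them are not given in the sources used here.

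With R 4.3.3 and limma 3.58.1, mean signals were corrected by normexp on local background (offset 50) and normalized within arrays by loess (span 0.3, 4 iterations). Control and outlier spots had weight 0 there and were then left out, and spots of a probe were averaged. Probes well above background in one group on all 4 arrays, with a value on at least 3, were kept (26447 of 41174). The brightest probe stood for a gene. A Th3 term and a dye term were fitted per gene (2 residual and 4.51 prior degrees of freedom), with Benjamini-Hochberg adjustment over 17639 genes at 0.05. The dye term is also the difference between the pairs of arrays. That difference is therefore left out of the spread behind the p-values of this fit, but is part of the SD given in the text. Intensities in the text are per channel after loess and Aquantile normalization, on a linear scale, and the SD after a ± is that of the log2 ratio over 4 arrays. Fits were tested on simulated data, and 16 alternatives changed the background correction, normalization, filters, probe rule, dye term, variance model or arrays. Genes were named through RefSeq tables of assembly GRCm38.p6; precision is limited by having 4 arrays.

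The genes and the lists of pathway and cell type genes were chosen with earlier results of these data known, so none is independent evidence. Ratios of every called gene are given on all 4 arrays, intensities for up to 3 called genes of each role with the largest differences, and for the pathway lists up to 3 called genes in each direction with Ifng and Ifnb1 (another gene that this rule names is not reported here); genes outside this rule that are named with intensities or described singly (Irgm1, Rsad2, Kap, S100a9, Camp) were chosen after their values were seen.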

Additional observations from a re-analysis of the deposited data

Results flagged for a closer look

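Over the 4 arrays, 40 genes and 4 medians were examined for a single array far from the other arrays, and 1 was found; chance alone gives about 1 in 20. It was the log2 ratio of Ifih1, a receptor of viral RNA, which was 0.249 on array 3 and 0.01, 0.03 and 0.01 on arrays 1, 2 and 4. Ifih1 did not pass the test (adjusted p = 0.423).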

How the results depend on the processing

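Slide and scan date are the same for all 4 arrays and could not be examined as batches. With 2 arrays per dye orientation the dye term leaves 2 residual degrees of freedom. Of 16 alternatives, none turned the sign of a called gene, the type I median or the GTPase median, or the difference of these medians. Alternatives that changed only the dye term, the block, the variance model or the array weights give the same mean ratios by design. Those could not have turned a sign. Zbp1 and Irf7 were called in all 16, Gvin1 and Irf8 in 15, and Oas2 in 7, the fewest. The 19 genes called lower became 11 with Agilent's processed signals, 12 with median centring, 5 without the dye term, 2 with the pair of arrays as a random block, and 10 to 17 with an array left out. Of all tested genes 10.6% were lower in the main fit. In the alternatives these shares were 8.78%, 6.5%, 5.03% and 3.13%, and 7.04% to 8.97% with an array left out. The count of genes called higher, 0, became 1 (Rsad2) with a normexp offset of 16, median centring, an intensity trend with robust variances, or array weights, and 0 to 1 with an array left out. Of all tested genes, 1862 were lower and 1923 higher; 1146 were lower with median centring, 888 lower and 1102 higher without the dye term, 552 and 641 with the block, and 1241 to 1580 lower and 1321 to 1612 higher with an array left out. Of the pathway genes, 9 lower became 2 without the dye term, 1 with the block and 4 to 10 with an array left out, and 1 higher became 1 to 2 with an array left out. Of the 2 fits chosen after seeing the data, arrays 1 and 2 alone gave 2 of the 40 genes, 514 of all tested genes and 2 pathway genes lower, and 629 of all tested genes and 2 pathway genes higher. Arrays 3 and 4 alone gave 22 of the 40 genes and 12 of the 43 measured pathway genes lower, against 9.55% of all tested genes. They gave 1 of the 40 genes and 0 pathway genes higher, against 8.56%. Why the counts differ between these fits was not tested, apart from the smaller number of arrays in some of them.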
